A study of Homo sapiens with 7 samples.

Results

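The OCT1 peak list of OCI-Ly7 cells holds every region on chromosomes 1 to 22 and X at which OCT1 ChIP-seq signal was called above input, 23571 of the 323423 peaks in the 6 lists of the study. ChIP-seq sequences the DNA fragments that come down with an antibody against a chromatin protein. OCI-Ly7 is an established line from a human diffuse large B-cell lymphoma, grown in suspension without any treatment. The groups were single libraries made from these cells with an antibody against OCT1 or against OCA-B, OCT2, EP300, CREBBP or MED1, set against input DNA taken without antibody. Each antibody had 1 library from the 1 line, so no value has a replicate check and no test between conditions was possible. The OCT1 library kept 22503613 tags after duplicate removal and the input kept 37517450, against 12357450 (CREBBP) to 27885791 (EP300) in the other 5 ChIP libraries. Intervals below are exact 95% binomial (Clopper-Pearson) intervals, which cover counting error only.

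OCT1, encoded by POU2F1, is a broadly expressed transcription factor whose POU domain binds the octamer ATGCAAAT and related sequences. Its B cell relative OCT2 (POU2F2) reads the same sequence, and OCA-B (POU2AF1) is a coactivator that joins either factor on DNA. OCT1 is best known from the promoters of histone H2B and small nuclear RNA genes. In lymphocytes and other cells it has also been linked to metabolic, stress response and immediate early genes.

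The DNA under some of the strongest promoter peaks that have the octamer is shown first, since the octamer is the sequence the factor reads. The next 6 stretches of 100 bases come from 300-base promoter windows (250 bases before to 50 after a start, RefSeq, GRCh38.p14) that hold both the octamer and an OCT1 summit. They are among the strongest such peaks but not a complete ranking. LOC105371899, MEF2C-AS2, ABTB2 and LINC02202 had a higher fold than INTS6L, the last shown, and are left out. The stretches run 5′ to 3′ on the strand of the gene, and capitals mark 1 octamer in each, in either orientation. The PIM2 stretch holds a second octamer, left in lower case near its 3′ end. Among peaks with the summit in such a window, 66 of 503 in the strongest decile by fold (13.1%) had the octamer there. Most of these strong promoter peaks therefore had no octamer in the window, and DNA outside the windows was not searched.
POLM: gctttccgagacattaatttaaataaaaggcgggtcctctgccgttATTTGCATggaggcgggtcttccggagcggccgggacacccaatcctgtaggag
TOP1: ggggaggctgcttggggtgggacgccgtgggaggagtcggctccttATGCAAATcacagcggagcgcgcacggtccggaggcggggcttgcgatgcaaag
PIM2: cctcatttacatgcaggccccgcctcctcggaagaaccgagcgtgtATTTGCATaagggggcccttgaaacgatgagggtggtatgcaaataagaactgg
POU2F1: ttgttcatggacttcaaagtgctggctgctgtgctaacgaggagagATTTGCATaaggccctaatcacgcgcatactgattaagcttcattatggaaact
PRDM2: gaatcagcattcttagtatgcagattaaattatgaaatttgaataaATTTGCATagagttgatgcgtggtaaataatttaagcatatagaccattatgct
INTS6L: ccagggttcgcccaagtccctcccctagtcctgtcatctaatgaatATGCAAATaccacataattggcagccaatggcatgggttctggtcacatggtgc
The stretches lie at chr7:44082643-44082742 (minus strand) for POLM, chr20:41028609-41028708 (plus strand) for TOP1, chrX:48919131-48919230 (minus strand) for PIM2, chr1:167328845-167328944 (plus strand) for POU2F1, chr1:13703650-13703749 (plus strand) for PRDM2 and chrX:135520511-135520610 (plus strand) for INTS6L. POLM encodes a DNA polymerase of end joining, TOP1 a DNA topoisomerase, PIM2 a survival kinase and PRDM2 a histone methyltransferase. The OCT1 summit lay 19.5 bp from the centre of the octamer at POLM, 24.5 bp at TOP1, 11.5 bp at PIM2, 17.5 bp at PRDM2 and 10.5 bp at INTS6L. The POU2F1 stretch is from a second start inside the gene, where the summit lay 34.5 bp from the octamer. Fold over input, the caller's ratio of OCT1 fragments to the local expectation from the input, was 85.4 at POLM, 56.2 at TOP1, 56.1 at PIM2, 42.6 at POU2F1, 37.5 at PRDM2 and 36.1 at INTS6L.

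Replication-dependent H2B genes are the textbook octamer promoters, and 14 of the 18 such genes had the octamer in their window. The 6 shown here had both the octamer and an OCT1 summit.
H2BC4: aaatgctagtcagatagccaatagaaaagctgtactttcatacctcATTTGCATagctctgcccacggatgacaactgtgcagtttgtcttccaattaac
H2BC3: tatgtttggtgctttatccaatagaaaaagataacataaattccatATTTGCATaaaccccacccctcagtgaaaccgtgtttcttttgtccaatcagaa
H2BC8: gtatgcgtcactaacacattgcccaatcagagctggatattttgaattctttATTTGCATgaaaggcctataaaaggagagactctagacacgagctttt
H2BC14: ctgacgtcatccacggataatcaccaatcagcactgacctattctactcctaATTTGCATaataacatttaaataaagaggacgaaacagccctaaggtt
H2BC12: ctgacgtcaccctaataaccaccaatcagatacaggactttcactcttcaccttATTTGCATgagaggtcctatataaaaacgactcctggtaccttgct
H2BC11: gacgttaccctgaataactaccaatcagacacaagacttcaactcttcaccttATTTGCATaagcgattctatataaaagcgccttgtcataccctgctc
They lie at chr6:26123996-26124095 (minus strand) for H2BC4, chr6:26043780-26043879 (minus strand) for H2BC3, chr6:26216689-26216788 (minus strand) for H2BC8, chr6:27814922-27815021 (plus strand) for H2BC14, chr6:27146859-27146958 (minus strand) for H2BC12 and chr6:27132796-27132895 (minus strand) for H2BC11. OCT1 fold was 25.8 at H2BC4, 20.5 at H2BC3, 16.8 at H2BC8, 12.6 at H2BC14, 9.03 at H2BC12 and 6.61 at H2BC11. The summit stood 3.5 bp from the octamer centre at H2BC3, 8.5 bp at H2BC11, 17.5 bp at H2BC14, 22.5 bp at H2BC8 and 45.5 bp at H2BC4. At H2BC12 it was 93.5 bp away. Neighbouring H2A and H2B genes share promoters, so that the peak of H2BC4 is also that of H2AC6 and the peak of H2BC8 that of H2AC8.

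Most OCT1 peaks were narrow and of low height. The median width was 319 bp, with 80% of the list between 184 and 666 bp and the whole list between 169 and 5213 bp. The lower limit equals the fragment length of 169 bp in the file header, and 1059 peaks (4.49%) were exactly that wide. Pileup, the number of overlapping fragments at the summit, had a median of 24 and ran from 8 to 337. Fold over input had a median of 5.65 (1.32 to 127). The 908 peaks (3.85%) with a pileup of 100 or more held 17.9% of the summed pileup. A fold of 20 or more was found at 704 peaks (2.99%) and of 50 or more at 89. Together the peaks covered 9.15 Mb.

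**Figure D1:**
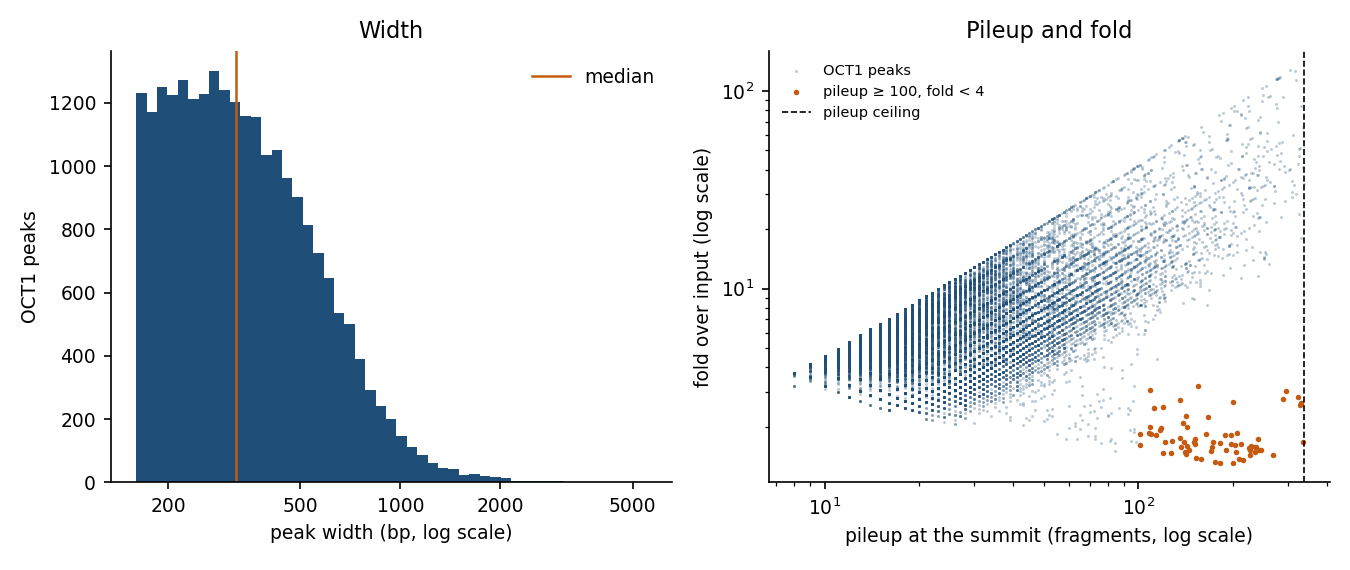
Width of the 23571 OCT1 peaks (left, base pairs on a log scale, bars count peaks, line at the median of 319 bp) and fold over input against pileup at the summit (right, both on log scales, each point 1 peak). The straight upper edge is where the input gave no more than the genome-wide background, the dashed line is the ceiling of 338 fragments, and the 69 orange points have a pileup of 100 or more but a fold under 4.

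The upper and lower ends of the list need separate reading. With 1 tag kept per position and strand, pileup cannot exceed 338 fragments, and the highest OCT1 peak reached 337, near GTPBP1. The 25 peaks with a pileup of 300 or more had folds between 1.68 and 127, so the tallest peaks did not share a fold. In 2288 peaks (9.71%), and in 18.2% of those with a fold of 20 or more, the input gave no more than the genome-wide background of 1.41 fragments, which makes the fold a restatement of the pileup. At the other end, 69 peaks with a pileup of 100 or more had a fold under 4. Of these, 18 lay in 1 megabase of chromosome 1 (143 to 144 Mb), 10 on chromosome 16 from 46 to 47 Mb, 8 on chromosome 4 and 8 on chromosome 5 from 49 to 50 Mb, and 7 on chromosome 16 from 34 to 35 Mb. The peak on chromosome 3 at 93 Mb had a pileup of 336 and a fold of only 1.68, over an expected level (plus 1) of 200.7 fragments.

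OCT1 peaks were common at gene starts. A summit within 1 kb of a start, or of either gene end where no start was known, was called promoter. This held for 9662 peaks, 41.0% (40.4 to 41.6), while such windows cover 3.16% of the annotated span. Another 8554 (36.3%) lay inside a gene and 5355 (22.7%) between genes. Promoter peaks were wider, with a median of 369 bp against 291 bp inside and 292 bp between genes. Their median fold was slightly higher, 5.94 against 5.40 in each other class. Very strong peaks were nevertheless less frequent at promoters, where 216 (2.24%) had a fold of 20 or more, against 306 (3.58%) inside and 182 (3.40%) between genes. Of the 89 peaks with a fold of 50 or more, 31 were at promoters, 35 inside and 23 between genes. The promoter share was 28.4% on chromosome 21 and 53.1% on chromosome 19, the lowest and highest over chromosomes. Of the 373 peaks on chromosome 21, 70 lay from 8 to 9 Mb, a stretch with 12 ribosomal RNA genes, and 1 of those was at a promoter.

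Summits lay just upstream of the start. Over the 8191 peaks within 1 kb of a known start, the median summit position was −56 bp, and 65.0% of summits were upstream. In the strongest decile by fold the median was −97 bp with 81.6% upstream, against −49 bp and 63.4% in the other deciles. Within 200 bp of the start lay 72.7% of the strongest decile and 68.3% of the others.

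**Figure D2:**
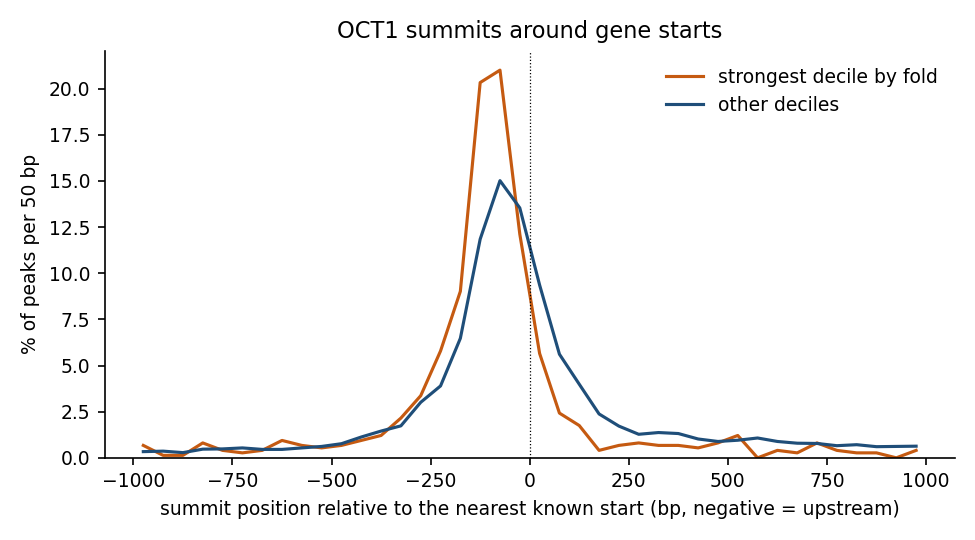
Position of OCT1 summits relative to the nearest known start (bp, negative is upstream), as the percentage of peaks in each 50 bp bin, for the strongest decile by fold (743 peaks) and the other deciles (7448 peaks). The strongest decile peaks between 150 and 50 bp upstream, where 2 bins hold 20.3% and 20.996% of it, and falls off before the start.

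Along the chromosomes, OCT1 peaks followed gene density. Chromosome 19 had 26.3 peaks per Mb and chromosome X had 3.51, against 7.78 over all chromosomes. Peaks per Mb and protein-coding genes per Mb had Pearson's r = 0.967 and Spearman's rho = 0.865 over the 23 chromosomes, given as a description of points from 1 library. Counted per 100 protein-coding genes, the order changed. Chromosome 19 then had 106 peaks, below the 118 over all chromosomes. Chromosome 18 was highest with 160 and chromosome X lowest with 64.6, and chromosome 11 had 85.2. The number of copies of each chromosome in this line is not known from the lists, and its part in these densities was not tested.

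**Figure D3:**
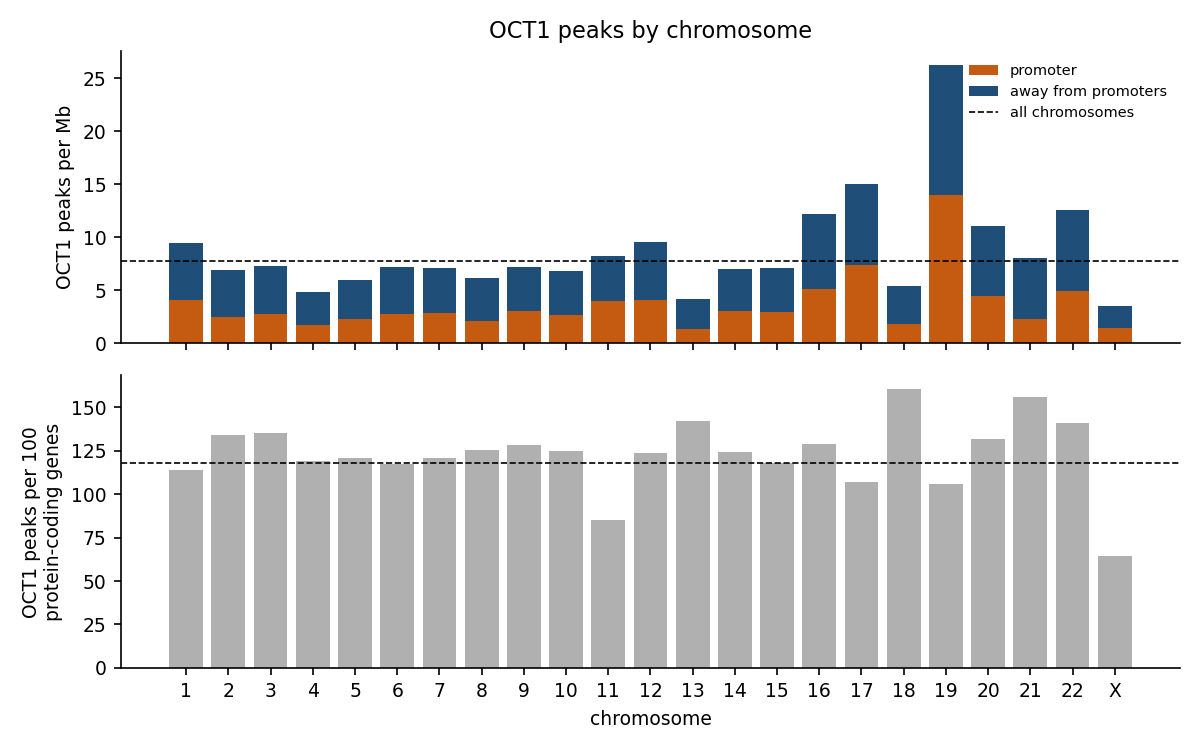
OCT1 peaks per Mb of annotated span (upper, split into peaks at promoters and away from them) and per 100 protein-coding genes (lower) for each chromosome, with dashed lines for all chromosomes together (7.78 and 118). Chromosome 19 is highest per Mb but not per gene, and chromosome X is lowest on both.

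Within chromosomes the peaks were clustered. The median distance between neighbouring summits was 27.1 kb, 11.1% of distances were under 1 kb and 24.97% were over 100 kb. Of 3043 bins of 1 Mb, 528 (17.4%) had no peak, whereas the 283 bins (9.30%) with 20 or more held 36.2% of all peaks. The fullest bin was chromosome 19 from 1 to 2 Mb, with 86 peaks, 41 of them at promoters, and 39 protein-coding genes. Chromosome 19 from 2 to 3 Mb had 70, chromosome 19 from 17 to 18 Mb had 63 and chromosome 11 from 65 to 66 Mb had 60. The bin of chromosome 21 from 8 to 9 Mb also had 70 peaks but no protein-coding gene. It contains 12 ribosomal RNA genes, 1 of its peaks was at a promoter, and its median fold was 4.63 with a median pileup of 61. Copies of ribosomal RNA genes share reads, so the peaks per copy there are uncertain.

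Of 19970 protein-coding genes, 8360 (41.9%) had a summit within 1 kb, and of 18177 lncRNA genes 2268 (12.5%). This 41.9% is the background for every list of protein-coding genes below. Among the genes with a peak, the median of the highest fold was 6.59, 1383 had at least 2 summits, and 219 (1.10% of all) reached a fold of 20. Genes with a head-to-head partner, a gene that starts on the opposite strand within 1 kb upstream, had a peak in 1587 of 1946 cases (81.6%), against 5454 of 13865 (39.3%) for other genes with a known start. One peak between such starts counts for both genes. Median folds were close, at 6.68 for head-to-head genes and 6.56 for the others. Of 1993 genes with starts more than 2 kb apart, 896 had a peak, which stood at some of the starts and not others in 740 and at every start in 156.

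The strongest promoter peaks were at SPECC1 (fold 115, pileup 275), which encodes a coiled-coil cytoskeletal protein, and CBFA2T3 (114, pileup 317), a transcriptional corepressor of blood cells. LENG9 (93.9), OCEL1 (93.0) and PANK4 (89.7), a pantothenate kinase family member, followed, and then POLM (85.4) and PKNOX1 (84.1), a homeodomain factor. Next were CADM1 (78.9), a cell adhesion molecule, PHLPP1 (75.4), a phosphatase that acts on AKT, AHCY (73.8), the hydrolase of S-adenosylhomocysteine, and DIAPH1 (72.9), an actin-nucleating formin. FAM219A (71.2), ZCCHC24 (70.2), ZNF428 (65.3) and STAC3 (64.6) complete the first 15. CADM1 and STAC3 were placed by a gene end, since no start was known. The SPECC1 peak spanned 702 bp and lay 147 bp from the start, and the PANK4 summit lay 17 bp from it. SPECC1 was in all 5 other lists with folds of 3.83 to 9.52, while the PKNOX1 peak, 905 bp wide with a pileup of 223, was in none of them. Folds of different libraries do not rank the factors, since depth and antibody differ.

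Away from promoters, the strongest peak lay on chromosome X between genes, 450.1 kb from the start of PPP4R3C, with a fold of 127 and a pileup of 305 over 1864 bp. The next was inside UBE3A, a ubiquitin ligase gene (fold 126, 3301 bp wide), followed by 1 inside KAZN, 49.0 kb from TMEM51 (117). Peaks between genes 115.7 kb from the start of CTDP1 (117) and 19.5 kb from that of KCNK1 (115), and inside RYR1 (116), the muscle calcium channel gene, were similar. Those inside KIAA1217 (106) and NRG3 (103) and 17.04 kb from the start of SLC60A1 (95.7) came next. Each of these named peaks was in the OCT2 list. Among them only the UBE3A peak was in the MED1 list, and none was in the CREBBP list.

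The 5 widest peaks were 5213 bp near STAC3, 5082 bp inside JMY, 4412 bp inside NUP62CL, 3974 bp between genes, 555 kb from the start of ADGRB3, and 3850 bp inside ABI3. Their folds were 64.6, 79.3, 53.1, 41.1 and 30.2 in that order.

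The POU2F1 gene itself, which encodes OCT1, carried 7 OCT1 peaks. The promoter peak had a pileup of 325 and a fold of 51.0 over 1545 bp, with its summit 119 bp from the start. A second peak 1.49 kb into the gene had a pileup of 308 and a fold of 35.1, and another at the internal start, 108 kb in, had a pileup of 323 and a fold of 42.6. These 3 were within 30 fragments of the pileup ceiling. The others had folds of 3.91, 18.98, 6.83 and 13.3. The promoter peak was in all 5 other lists. POU2F3, a related POU factor, had a fold of 17.9 with a pileup of 42 at one gene end. POU2F2 had 5.55 with a pileup of 23, and POU2AF1 had 4.64 with a pileup of 37 at one gene end.

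Each of the 25 listed small nuclear and related RNA genes had a summit from 1 kb before to 1 kb after it, against 59 of 154 (38.3%) over all annotated snRNA genes, many of which are copies. The median highest fold was 13.1, from 6.16 at RNU6ATAC to 35.6 at RNU5A-1, against 11.7 over the 59 annotated snRNA genes with a peak. The listed genes were not taken out of that annotated set, so the groups are not separate. RNU5A-1 had a pileup of 258 and encodes a spliceosomal RNA. RNU6-2 (29.5) and RNU6-1 (27.4) encode U6 RNA, which RNA polymerase III transcribes, and RPPH1 (26.5) the RNA of RNase P. By the same rule, transfer RNA genes had a summit in 141 of 443 cases (31.8%). Their median highest fold was 5.14 and the highest was 41.9, at TRA-CGC5-1. The share by this rule was 8.37% for miRNA genes, 4.01% for snoRNA genes and 1.85% for pseudogenes. Near-identical copies share reads, so counts per copy are uncertain.

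Histone genes were marked in most cases. Of 18 H2B genes 14 had a peak, with a median highest fold of 11.9 (6.47 to 25.8), led by H2BC4 (25.8), H2BC26 (24.3), H2BC3 (20.5) and H2BC8 (16.8). H2BC1, H2BC6, H2BC9 and H2BC21 had none. Of 51 other replication-dependent histone genes 39 had a peak, with a median of 6.61, led by H2AC6 (25.8), H2AC25 (24.3), H2AC8 (16.8) and H2AC17 (15.8), while H1-1, H1-3, H1-4 and H1-6 had none. Of the 14 H2B windows with the octamer 10 genes had a peak (median fold 13.8), and all 4 without it also had one (median 9.22). Among the other histone genes with a window, 9 of 12 with the octamer (median 12.6) and 25 of 34 without it (median 5.73) had a peak. Peaks were thus found at most of these genes with or without the octamer, and the median folds were higher with it. Most of the other histone genes with the octamer and a peak had the fold of an H2B gene, as shared peaks do. Examples are H2AC6 with H2BC4, H2AC8 with H2BC8 and H2AC17 with H2BC17. Some genes without the octamer also share a peak. Shared peaks count in each list, so the lists are not separate comparisons.

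Genes of basic cell functions mostly had an OCT1 peak, at folds near the overall median. All 30 listed spliceosome genes had one (median fold 6.25), led by SF3A2 (17.8), SF3B2 (16.8), SRSF2 (13.1, at a gene end) and SF3B1 (11.4). All 26 DNA repair genes did too (median 5.97), led by ERCC2 (28.8), a helicase of nucleotide excision repair, PMS2 (17.03), of mismatch repair, BRCA2 (14.03), of homologous recombination, and PRKDC (13.1, at a gene end). Cell cycle and DNA replication genes had 31 of 32 (median 6.21), with the helicase subunit genes MCM7 (13.5), MCM4 (13.1, at a gene end) and MCM6 (10.0), and CDC45 (9.57), highest and only CCNE1 without. MCM4 and PRKDC share 1 peak. Oxidative phosphorylation genes had 30 of 31 (median 5.90), led by ATP5F1B (17.9, at a gene end), NDUFS7 (12.2), COX4I1 (12.02) and UQCRFS1 (11.6). Cytosolic ribosomal protein genes had 30 of 35 (median 6.46, RPL11 highest at 18.7), mitochondrial ribosome genes 25 of 28 (5.53, MRPL15 highest at 13.96, at a gene end) and proteasome genes 22 of 29 (5.96, PSMD11 highest at 10.5). In glycolysis 12 of 17 had a peak (7.17), with ALDOA (10.2), PGK1 (8.73), LDHA (8.69) and PKM (8.53) highest, and ENO2, GPI, LDHB and PFKP among those without. The medians of these lists lay between 5.53 and 7.17. Only that of glycolysis was above the 6.59 of all protein-coding genes with a peak, and the others were below it.

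Immediate early and stress response genes had a peak in 14 of 20 cases, with a median fold of 8.98. GADD45A, a DNA damage response gene, was highest with a fold of 46.8 and a pileup of 214 at a gene end. JUN (13.7), EGR1 (11.95) and EGR2 (11.2), transcription factors of the early response, followed, and ATF3, HMOX1, HSPA1A and HSPA1B had none.

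B cell genes were marked in differing degree. Of 20 B cell receptor signalling genes 17 had a peak (median 7.35), led by PRKCB (35.4, pileup 98), the kinase C upstream of NF-kB in B cells. SYK (16.5), LYN (9.85, at a gene end) and BCL10 (9.04) came next, and LAT2, NFATC1 and RASGRP3 had none. Of 24 germinal centre genes 20 had a peak (median 5.42). MEF2B (24.8), FOXP1 (20.7), SPIB (17.4) and MEF2C (15.7), which all encode transcription factors, were highest, and BACH2, FOXO1, MME and SERPINA9 had none. Of 25 B cell identity genes 16 had a peak (median 5.76), with CD79B (24.2), CD37 (13.8) and CIITA (10.0) at gene ends and TCF3 (11.6) at its start. Among the defining B cell markers, MS4A1 (8.42, at a gene end), CD79A (6.59) and CD22 (3.67) had a peak and PAX5 and EBF1 had none. Immunoglobulin V segments had a summit from 1 kb before to 1 kb after the segment in 47 of 133 cases (35.3%), highest at IGLV5-39 (29.7). The share of protein-coding genes above was counted by another rule. By the rule for V segments the share was 38.3% for snRNA, 31.8% for transfer RNA and 8.37% for miRNA genes. It was 4.01% for snoRNA genes and 1.85% for pseudogenes.

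Lists of other cell types were below the 41.9% of all protein-coding genes. A summit within 1 kb of a start or gene end was found at 4 of 14 T cell genes (28.6%, 8.39 to 58.1, an interval that includes 41.9%), LCK (9.70), CD3G (9.57, at a gene end), LAT (5.36) and CD28 (3.98), while CD2, CD3D and CD3E had none. Of 12 myeloid genes 1 had a peak, CEBPE at a fold of 2.44, and CD14, CSF1R and MPO had none. Of 12 liver genes 1 had a peak, TF at 3.92. None of 12 neuron genes had one, which with 12 genes allows a share of up to 26.5%. A peak at a promoter is not a measure of the gene's RNA.

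**Figure D4:**
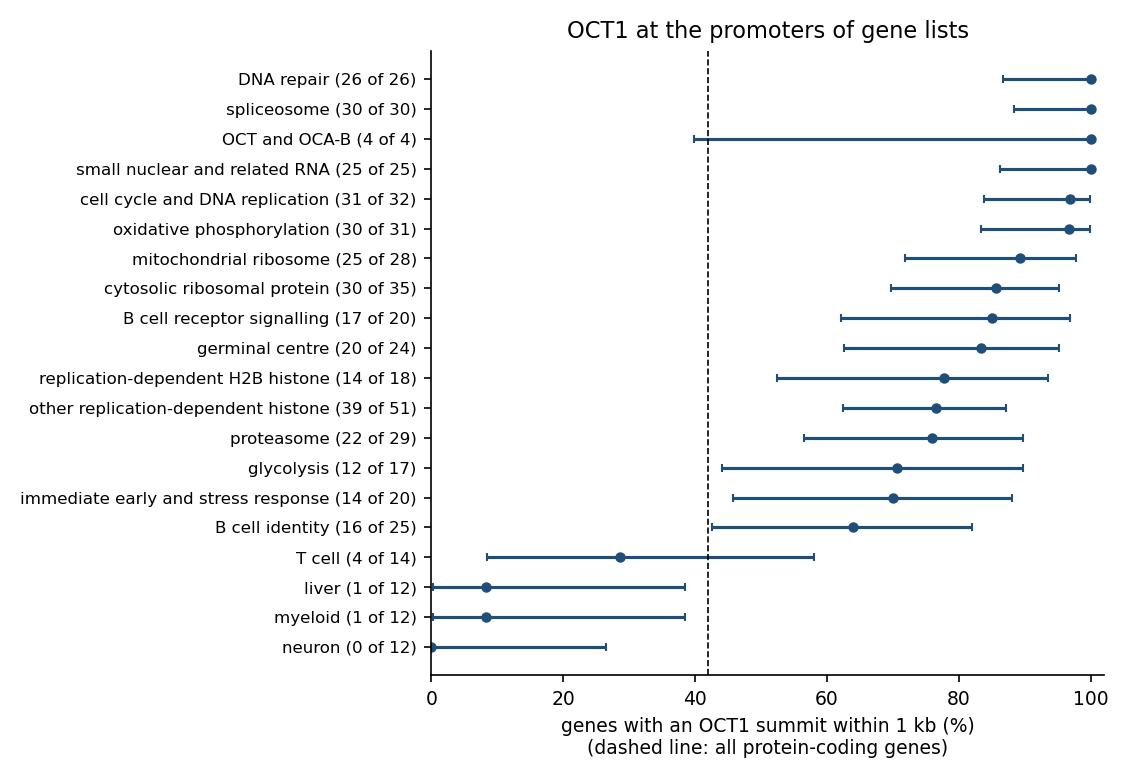
Percentage of each list's genes with an OCT1 summit within 1 kb (points, with exact 95% binomial intervals as bars, counts in the row labels). The dashed line marks the 41.9% of all protein-coding genes, and the T cell, liver, myeloid and neuron lists lie to its left. The small nuclear RNA genes were placed by their own rule, with a background of 38.3%.

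The octamer was concentrated in the strongest promoter peaks. For 5027 OCT1 peaks the summit lay inside the promoter window of the nearest start. ATGCAAAT, searched on both strands, was in that window for 140 of these peaks (2.78%, 2.35 to 3.28). It was in 452 of 28204 windows without an OCT1 summit (1.60%) and in 618 of all 34961 (1.77%). By quartile of fold the share was 0.955%, 1.67%, 1.75% and 6.76% from weakest to strongest. The rise came almost wholly from the strongest decile. There 66 of 503 peaks had it in the window (13.1%, 10.3 to 16.4), against 74 of 4524 (1.64%) in deciles 1 to 9. Counted per window and not per peak, 166 of the 618 octamer windows had an OCT1 summit (26.9%), against 19.2% of windows without the octamer. The promoters of PRKCB (fold 35.4), MAP4K1 (35.4), SREBF2 (32.8), E2F3 (32.6), FKBP5 (25.9), MEF2B (24.8) and HMGA1 (22.4) were among those with the octamer and a strong peak, named after their values were seen.

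The distance from summit to octamer was measured only where both lay in the same promoter window, which bounds it. The median distance to the octamer centre was 17.5 bp in the strongest decile, with 57 of 66 (86.4%) within 50 bp. In deciles 1 to 9 it was 28.5 bp, with 50 of 74 (67.6%) within 50 bp. Summits and octamers both lay mostly just upstream of the start. Whether they were closer than these shared positions alone would give was not tested. Relative to the start, the median position of the octamer centre was −105.5 bp in the strongest decile and −75 bp in the others. Adding the related letters ATGCTAAT, then ATCTGCAT and then CATGAATA, picked after looking at which 8-letter words were frequent under strong peaks, brought the share in the strongest decile to 20.9%, against 2.34% in deciles 1 to 9. Since these words were picked on the same windows, that share is a description only.

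Letters of other promoter elements were frequent at weak peaks as well. ACTTCCG, letters of the ETS family site, was also picked after the windows were examined. It was in the window for 935 of the 5027 peaks (18.6%), against 3.77% of windows without an OCT1 summit. By fold, the share was 22.7% in the weakest decile and 13.9% in the strongest. Ranked by −log10 q these were 18.3% and 13.1%, and by pileup 12.3% and 12.9%, so the fall depended on the measure of strength. The words CATGCGC and CCAATCG were picked in the same way. CATGCGC, part of the NRF1 site, was in 10.8% against 2.81%, and CCAATCG, which holds the core read by NF-Y, in 7.72% against 1.74%. From weakest to strongest decile by fold these shares were 7.95% and 8.75% for the first and 6.56% and 11.3% for the second. Of the windows with ACTTCCG 55.4% had an OCT1 summit, compared with 26.9% of those with the octamer and 17.5% with its 7-letter form ATGCAAA. Since ACTTCCG was picked on these windows and the octamer was not, these shares are a description only. A match is a description of the letters in a window and does not show that a factor was bound.

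**Figure D5:**
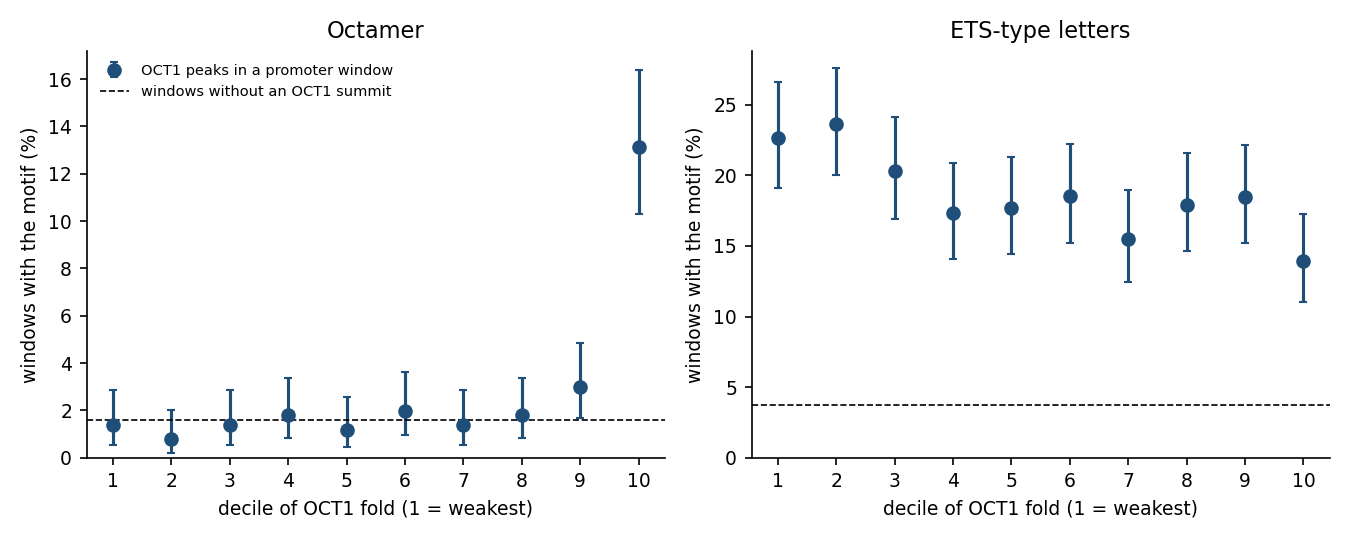
Percentage of OCT1 peaks whose promoter window holds the octamer (left) or the ETS-type letters (right), by decile of OCT1 fold, 502 or 503 peaks each. Bars are exact 95% binomial intervals, and dashed lines mark windows without an OCT1 summit (1.60% and 3.77%). The octamer stands out in decile 10 (13.1%), whereas the ETS-type letters are above the line in all 10 deciles. By fold they are most frequent in the 2 weakest, which does not hold by pileup. The legend holds for both panels.

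The other 5 lists give context. OCT1 peaks overlapped OCA-B in 72.7% of cases, OCT2 in 67.9%, EP300 in 66.7%, CREBBP in 53.1% and MED1 in 52.9%. Those lists hold 55361, 73829, 82569, 44585 and 43508 peaks in that order. No share here was corrected for list size, so the shares do not rank the factors. All 5 were present at 11286 peaks (47.9%) and none at 4921 (20.9%). At promoters 32.6% had all 5 and 29.3% none, against 58.5% and 15.0% away from promoters. How overlap changed with the strength of the OCT1 peak depended on the measure of strength. By fold, MED1 was at 53.4% of the strongest decile and 71.5% of the weakest. By −log10 q it was at 71.4% and 43.4%, and by pileup at 78.7% and 13.3%. The weakest decile by fold had a median expected level (plus 1) of 7.60 fragments, against 3.64 in the strongest, so the sites ranked weakest by fold also had the higher input level. At the 89 peaks with a fold of 50 or more, OCT2 was present at 94.4%, OCA-B at 80.9% and MED1 at 28.1%. Of the 704 peaks with a fold of 20 or more, 50 were in none of the other lists, and 22 of those were at promoters.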

How the data were processed

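ChIP-seq libraries of OCI-Ly7 cells were aligned to hg38 and peaks called, with MACS2 2.1.1.20160309, Bowtie2 2.3.2.2, CASAVA 1.8.2 and SAMtools 1.3.1 listed in the submitters' processing notes. Per the file headers, peaks of each ChIP library were called separately over 1 common input at q 0.05, from 51 bp tags with 1 tag kept per position, so tall peaks are capped. For OCT1, 24961634 tags were read and the redundant rate was 0.10. The deposited values per peak are the fold over input as a ratio, the −log10 q-value and −log10 p-value, and the pileup, a signal in fragments at the summit, all by the authors, and were used only to describe and rank OCT1 peaks.

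Summits were placed against RefSeq genes of GRCh38.p14, the same assembly as hg38, with Python 3.11.15, pandas 2.3.3, NumPy 2.4.6 and SciPy 1.17.1. Starts were known for 15811 of 19970 protein-coding and 11383 of 18177 lncRNA genes. For the others, including all genes on chromosome 8, either gene end was used. Overlap meant at least 1 bp. Motifs were searched in the 34961 promoter windows with a sequence. No genome sequence was used, so DNA under other summits was not examined. Members and lists were chosen with earlier results of these data known. Genes named are those at the 15 strongest promoter and 10 strongest other peaks by fold, of each list the 4 highest and up to 4 without a peak, the POU2F and POU2AF1 genes, the widest peaks, the fullest bins and the cell type markers. In the largest lists fewer are printed, and some genes that the rule names are not reported here. One listed oxidative phosphorylation gene was not matched. Functions for distance, overlap and motif search were tested on simulated data.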

Additional observations from a re-analysis of the deposited data

Results flagged for a closer look

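The OCT1 table also holds 942 peaks outside chromosomes 1 to 22 and X, which entered no count above. Of these, 152 were on chromosome Y, 179 on unplaced and random contigs (median fold 4.01, median pileup 57) and 7 on the mitochondrial genome (median fold 1.44, median pileup 286). Alternate contigs held 604, with 104 on those of chromosome 6 and 60 on 1 contig of chromosome 14 (median fold 5.74, median pileup 16.5). The highest fold on the other alternate contigs was 104. There was no control antibody to set these counts against.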

How the results depend on the processing

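No paired analysis was possible because each factor had 1 library and the lists come from no test. A −log10 q of at least 5 left 18973 peaks with a median width of 357 bp, pileup of 28 and fold of 6.30, and the stronger 50% by fold 11785 peaks. The promoter share of 41.0% was 35.6% with a 500 bp window, 46.3% with 2 kb, 42.3% with any part of the peak, 42.2% at the stricter q, 45.4% in the stronger 50% and, chosen after the data were seen, 34.8% with known starts only. Genes with a promoter peak stayed within 1.5 times of 8360 (7041 to 8781). Of 60 list counts, 57 stayed within 1.5 times. The others went to 0, for myeloid genes with 500 bp and at the stricter q, and for liver genes at the stricter q. Chromosome 19 had 3.38 times the peaks per Mb of all chromosomes but 0.899 times per protein-coding gene. With the 7-letter ATGCAAA the motif share was 4.65% of OCT1 peaks with the summit in a window, against 4.55% of windows without a summit, and 17.3% of the strongest decile. A summit lay in 17.5% of windows with these letters, against 19.4% of those without, the opposite order to the octamer. At the stricter q the octamer share was 3.02% and 13.9%. Ranked by −log10 q or pileup instead of fold, both added later, the strongest decile held 16.1% or 15.9%. The MED1 share of the strongest minus the weakest decile was −18.0 points by fold, but 28.0 by −log10 q and 65.5 by pileup, where the ranking alone was changed. With summits within 250 bp, overlap was 65.0% for OCA-B, 59.8% for OCT2, 43.1% for MED1, 45.4% for CREBBP and 54.1% for EP300, and the stricter q in both lists moved none of the 5 beyond counting error. Depth limits the weakest peaks, whose summits rest on as few as 8 fragments.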
